A study of Rattus norvegicus with 8 samples.

Results

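The genes described here are 7 markers of the heart's atria, Myl4, Myl7, Sln, Nppa, Gja5, Dkk3 and Pam, followed heart by heart. They are 7 of the 14217 genes that the arrays named, and were read by 13 probe sets of the 31042 tested. A probe set belongs to a gene here if the platform annotation gives that gene as its only symbol. The genes were chosen by name, with the spread of their levels between single hearts already known, so those levels are given as a description. RNA came from 8 isolated hearts of male Wistar rats, perfused for 2 h through the aorta in a Langendorff apparatus whose perfusate was not recirculated. The perfusate held no drug in 4 control hearts and 2 µM doxorubicin, an anthracycline anticancer drug, in the other 4. Each heart had its own Affymetrix array and is called control 1 to 4 or doxorubicin 1 to 4, as numbered in the labels. The tissue is labelled as rat heart, and each heart is labelled a biological replicate of its group. Which chambers went into each RNA sample is not given in the sources used here.

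The atria and the ventricles of an adult heart build their muscle from partly different genes. Atrial muscle uses its own myosin light chains, restrains its calcium pump with sarcolipin and stores the hormone ANP, while ventricular muscle uses other light chains and phospholamban. In atrial muscle cells ANP is kept in secretory granules, whose membranes are rich in the enzyme encoded by Pam. Connexin 40, encoded by Gja5, joins atrial cells electrically and is also made by the ventricular conduction system and by arterial endothelium.

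The DNA just before the start of 3 of these genes, whose levels ranked the hearts almost alike, is shown with that of Nppb, the neighbouring natriuretic peptide gene, whose level did not. Each stretch is the 250 bases before the annotated start, on the gene's own strand, from RefSeq on the GRCr8 build. These are chr10:89975900-89976149 (plus strand) for Myl4, chr14:84996625-84996874 (minus strand) for Myl7, chr5:163711934-163712183 (plus strand) for Nppa and chr5:163699758-163700007 (plus strand) for Nppb. Capitals mark a T-box motif, AGGTGT, in Myl4 and a GATA motif, AGATAA, in Nppb.
Myl4: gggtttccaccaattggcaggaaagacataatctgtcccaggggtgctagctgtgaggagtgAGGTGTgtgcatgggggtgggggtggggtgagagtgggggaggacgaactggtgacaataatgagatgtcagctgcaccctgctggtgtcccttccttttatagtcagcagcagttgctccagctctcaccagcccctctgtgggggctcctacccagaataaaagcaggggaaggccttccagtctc
Myl7: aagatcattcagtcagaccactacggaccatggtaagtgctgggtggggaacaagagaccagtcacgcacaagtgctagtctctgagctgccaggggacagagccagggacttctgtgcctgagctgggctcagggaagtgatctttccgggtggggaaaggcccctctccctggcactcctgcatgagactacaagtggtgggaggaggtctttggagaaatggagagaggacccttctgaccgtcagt
Nppa: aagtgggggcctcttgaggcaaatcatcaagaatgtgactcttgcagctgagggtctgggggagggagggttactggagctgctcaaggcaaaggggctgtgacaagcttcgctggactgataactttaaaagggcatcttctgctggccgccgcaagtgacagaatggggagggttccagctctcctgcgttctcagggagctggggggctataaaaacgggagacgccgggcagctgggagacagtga
Nppb: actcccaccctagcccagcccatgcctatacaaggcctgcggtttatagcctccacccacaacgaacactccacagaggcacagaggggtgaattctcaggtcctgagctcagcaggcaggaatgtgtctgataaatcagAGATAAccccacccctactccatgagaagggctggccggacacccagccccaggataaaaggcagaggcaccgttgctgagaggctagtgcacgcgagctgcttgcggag
Both strands were searched, and the reverse complements are ACACCT and TTATCT. Of 33469 RefSeq stretches of this length, 11.6% held the T-box motif and 10.3% the GATA motif. The Myl7 and Nppa stretches held neither motif, the Gja5 stretch held neither, and the Pam stretch held 1 GATA motif. Only these exact letters were counted. The similar letters tgataa, present in the Nppa and Nppb stretches, were not searched for. A match here is a match of letters and not a binding site.

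The atrial myosin light chains showed the widest spread. Myl4, which encodes the atrial essential light chain, had log2 intensities of 5.32, 10.59, 9.16 and 6.20 in control hearts 1 to 4. In doxorubicin hearts 1 to 4 it lay at 9.66, 8.83, 6.77 and 11.77. Doxorubicin 4 and control 2 were highest and control 1 lowest, and the groups overlapped over most of the range. The highest heart was 88.0-fold above the lowest.

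Myl7, which encodes the atrial regulatory light chain, lay at 5.03, 11.32, 10.23 and 7.01 log2 in control hearts 1 to 4. The doxorubicin hearts had 10.25, 9.45, 6.90 and 12.26 log2. The same hearts were at the ends as for Myl4, and the span was 150.3-fold. Myl7 had the widest range over the 8 hearts of all 14217 genes, at 7.23 log2. Myl4 was the 4th, at 6.46. As the samples are bulk RNA, fewer atrial cells in a sample and less of this RNA per cell cannot be told apart.

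Sln encodes sarcolipin, the small membrane protein that inhibits the calcium pump of the sarcoplasmic reticulum in atrial muscle. Its log2 intensity was 6.11, 9.78, 8.80 and 6.44 in control hearts and 8.69, 7.86, 5.98 and 10.90 in doxorubicin hearts, each in the order 1 to 4. Doxorubicin 4 was again highest, and doxorubicin 3 lay just under control 1 at the low end. The span was 30.3-fold, or 4.92 log2, the 9th widest of all genes.

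Nppa encodes the precursor of ANP, the hormone that lowers blood volume and is made mainly in atrial muscle. It lay at 10.07, 12.37, 11.94 and 9.88 log2 in control hearts 1 to 4 and at 11.77, 11.28, 10.17 and 13.30 log2 in doxorubicin hearts 1 to 4. Doxorubicin 4 and control 2 led here too, while control 4 and control 1 were lowest. Its range of 3.42 log2 was the 20th widest.

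The other 3 genes varied little, with ranges of 0.31 to 0.57 log2. Gja5 lay at 5.01 to 5.22 log2 in control and 5.04 to 5.47 log2 in doxorubicin hearts, a 1.38-fold span, with doxorubicin 3 highest and control 1 lowest. Its second probe set lay at 4.28 to 4.53 log2. For scale, 25% of all probe sets had a mean under 4.16 log2. Dkk3, which encodes a secreted protein of the Dickkopf family, lay at 10.06, 10.63, 10.63 and 10.56 log2 in control hearts 1 to 4 and at 10.33 to 10.47 log2 in doxorubicin hearts. Control 1 stood apart from the other control hearts at the low end, and the span was 1.48-fold. Its other 3 probe sets, with means of 3.84 to 4.90 log2, were far dimmer.

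Pam encodes the enzyme that amidates the ends of peptide hormones. Its brightest probe set lay at 12.24, 12.48, 12.55 and 12.37 log2 in control hearts 1 to 4. The doxorubicin hearts had 12.34, 12.39, 12.40 and 12.54 log2. Control 3, doxorubicin 4 and control 2 were highest and control 1 lowest, but the whole span was 1.24-fold, narrower than that of most genes (9487th of 14217). The other 2 Pam probe sets were under the 4.16 log2 level.

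**Figure D1:**
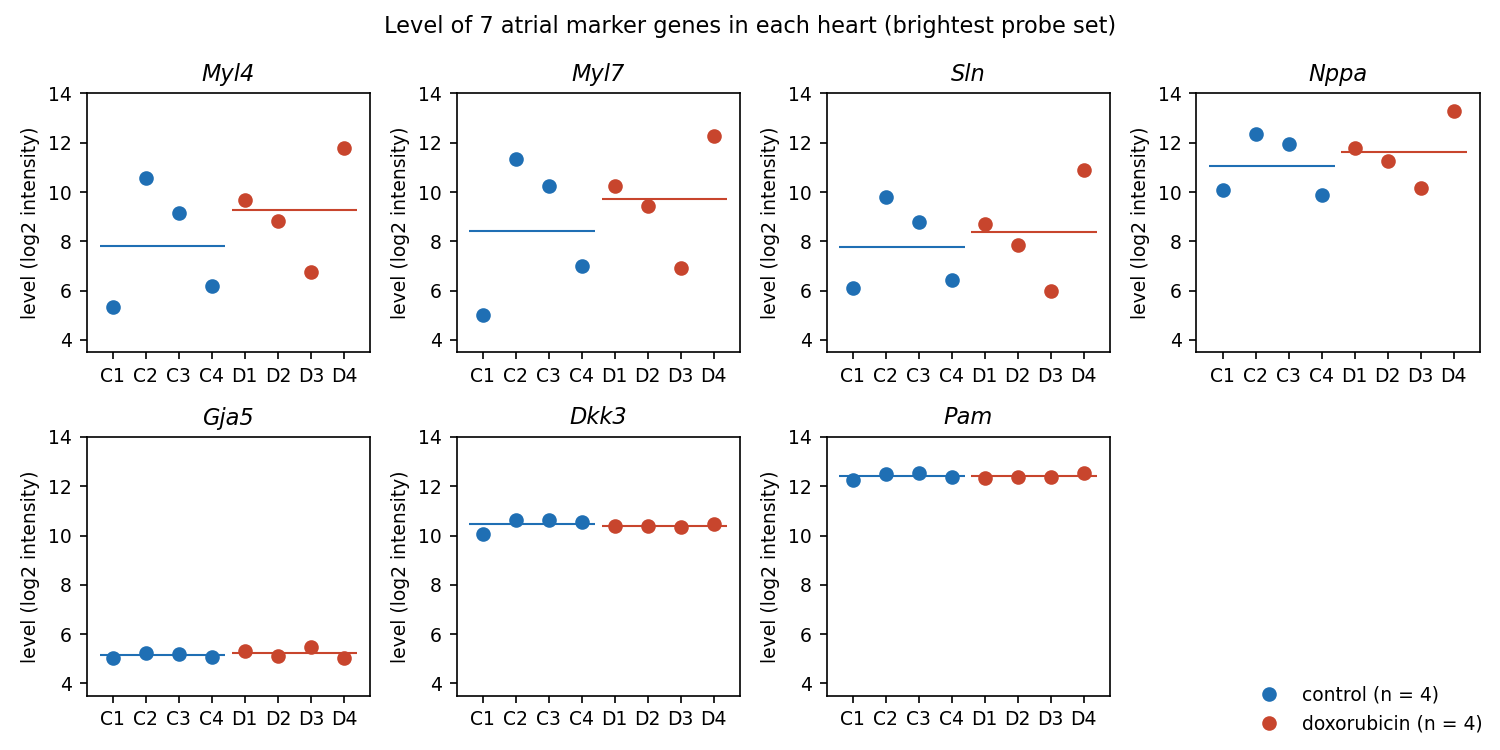
Log2 intensity of the brightest probe set of each gene (y axis, the same in all panels) in each heart (x axis; C control, D doxorubicin), with lines at the group means of 4 hearts. Myl4, Myl7, Sln and Nppa spread over 3.42 to 7.23 log2 with D4 highest, and Gja5, Dkk3 and Pam over 0.31 to 0.57 log2.

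Myl4, Myl7, Sln and Nppa ranked the hearts almost alike. In all 4 genes doxorubicin 4 was 1st, control 2 was 2nd and doxorubicin 2 was 5th. Control 3 and doxorubicin 1 shared ranks 3 and 4, and doxorubicin 3, control 4 and control 1 shared ranks 6 to 8. Over the 8 hearts the Pearson correlation between any pair of the 4 was 0.954 to 0.990, and Spearman's rho 0.905 to 0.976. Without control 1 and doxorubicin 4, the hearts farthest from the median, Pearson's r was 0.967 to 0.991 over 6 hearts. The correlations of Gja5 with the 4 genes were -0.17 to 0.01 and those of Dkk3 0.485 to 0.664. Those of Pam were 0.748 to 0.802, and 0.424 to 0.555 without the same 2 hearts. All points share the RMA normalization, and these values describe the hearts without a test.

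On the linear scale each gene can be set against its own intensity in doxorubicin 4. Control 2 reached 44.0% of that intensity for Myl4, 52.2% for Myl7, 46.0% for Sln and 52.7% for Nppa. Control 3 reached 16.3%, 24.5%, 23.3% and 39.0% for the same genes, doxorubicin 1 reached 23.1%, 24.8%, 21.5% and 34.8%, and doxorubicin 2 reached 13.0%, 14.3%, 12.2% and 24.7%. The 3 low hearts lay at 0.665% to 3.12% for the light chains, at 3.30% to 4.53% for Sln and at 9.37% to 11.4% for Nppa. Nppa kept nearly the same order as the light chains and Sln, with smaller steps between hearts. Pam stayed at 80.9% or more in every heart, Dkk3 at 75.4% or more and Gja5 at 98.2% or more. Array intensities are not proportional to RNA near background or at the bright end, so these percentages are not shares of tissue.

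**Figure D2:**
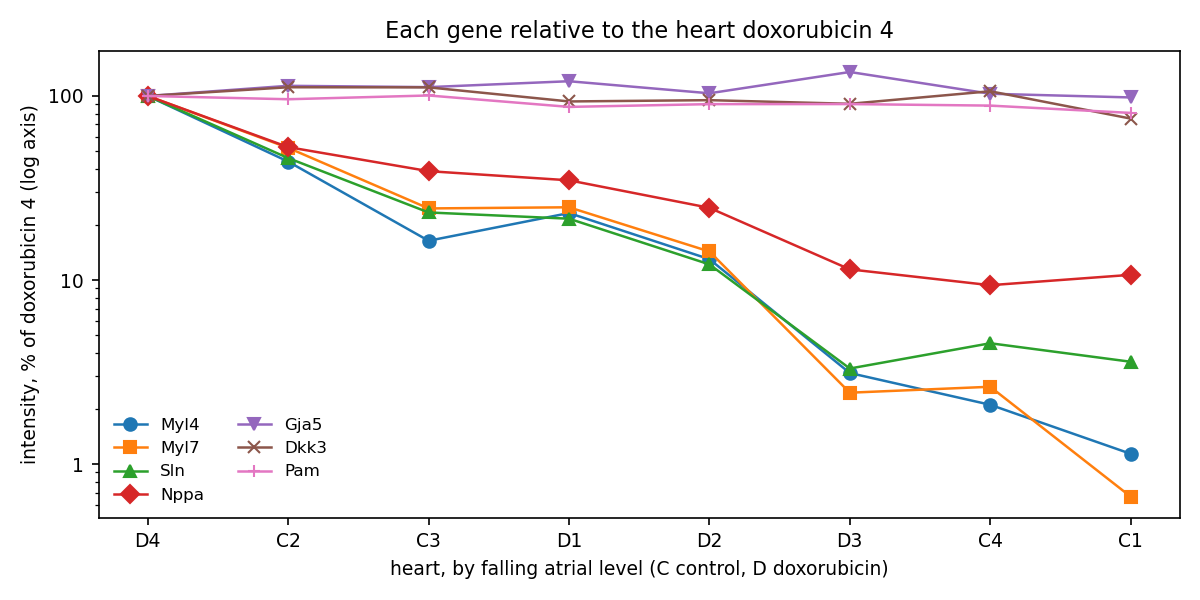
Intensity of each gene as a percentage of its own intensity in doxorubicin 4 (y axis, log scale), with the hearts in order of their atrial level (x axis; C control, D doxorubicin). The lines of Myl4, Myl7, Sln and Nppa go down together from D4 to C1, though not at every step, to 0.665% for Myl7. Gja5, Dkk3 and Pam stay between 75.4% and 135.0%.

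To give each heart a single value, the deviations of the 7 genes from their means over the 8 hearts were averaged into an atrial level in log2 units. It was -1.60, 1.05, 0.50 and -1.07 in control hearts 1 to 4 and 0.48, 0.04, -1.001 and 1.61 in doxorubicin hearts 1 to 4. The lowest 3 hearts lay between -1.60 and -1.001 and the other 5 between 0.04 and 1.61, and each group held hearts of both kinds. The mean was -0.28 ± 1.26 in control and 0.28 ± 1.08 in doxorubicin hearts (SD, n = 4). The 4 genes of wide range set most of this level, and it is not tested, since the 7 genes were chosen with their levels in single hearts known.

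Between the groups, none of the 7 genes differed by more than the spread between hearts. Differences are doxorubicin minus control from limma, adjusted by the Benjamini-Hochberg method over the 31042 probe sets, and a probe set is called at an adjusted p under 0.05. None of the 13 probe sets was called, against 2.21% of all probe sets (687 of 31042), and 1 had an unadjusted p under 0.05. The groups overlapped for all 13, and 8.55% of all probe sets had groups without overlap. With only 13 probe sets, a count of 0 does not set them apart from either share. By gene, 2.97% of the 14217 were called and none of these 7. Leaving out control 3 brought the 687 to 444, and leaving out doxorubicin 1, 2 or 3 brought them to 397, 452 or 435.

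Myl4 differed by 1.44 (SE 1.27, limma adjusted p = 0.719), with a 95% interval of -1.40 to 4.28, from 7.82 ± 2.47 log2 in control to 9.26 ± 2.07 log2 in doxorubicin hearts (SD, n = 4). Myl7 differed by 1.32 (SE 1.44) with an interval of -1.89 to 4.53. Both intervals hold sizeable differences in either direction, which 4 hearts a group could not tell from 0. The estimate for Myl4 ranged from 0.60 without doxorubicin 4 to 2.37 without control 2, and that for Myl7 from 0.20 without control 1 to 2.29 without control 2.

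Sln differed by 0.58 (SE 1.07, interval -1.81 to 2.97), and by -0.27 once doxorubicin 4 was left out. Nppa differed by 0.56 (SE 0.72, interval -1.04 to 2.17), and by 0.01 without doxorubicin 4. Other single hearts moved both as well. Sln differed by 0.02 without control 1, 0.13 without control 4 and 1.37 without doxorubicin 3, and Nppa by 0.23, 0.17 and 1.05 without the same hearts.

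For the genes of narrow range the intervals were tight. Gja5 differed by 0.10 (interval -0.13 to 0.32), Dkk3 by -0.08 (interval -0.34 to 0.19) and Pam by 0.01 (interval -0.17 to 0.19). Without control 1 the Dkk3 difference was -0.21 (limma adjusted p = 0.143) and without control 2 it was -0.02, and Gja5 differed by 0.02 without doxorubicin 3 and 0.16 without doxorubicin 4. The probe set with the unadjusted p under 0.05 was a dim one of Pam, at 0.26 (SE 0.08, limma adjusted p = 0.193), with means of 4.02 log2 in control and 4.27 log2 in doxorubicin hearts.

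**Figure D3:**
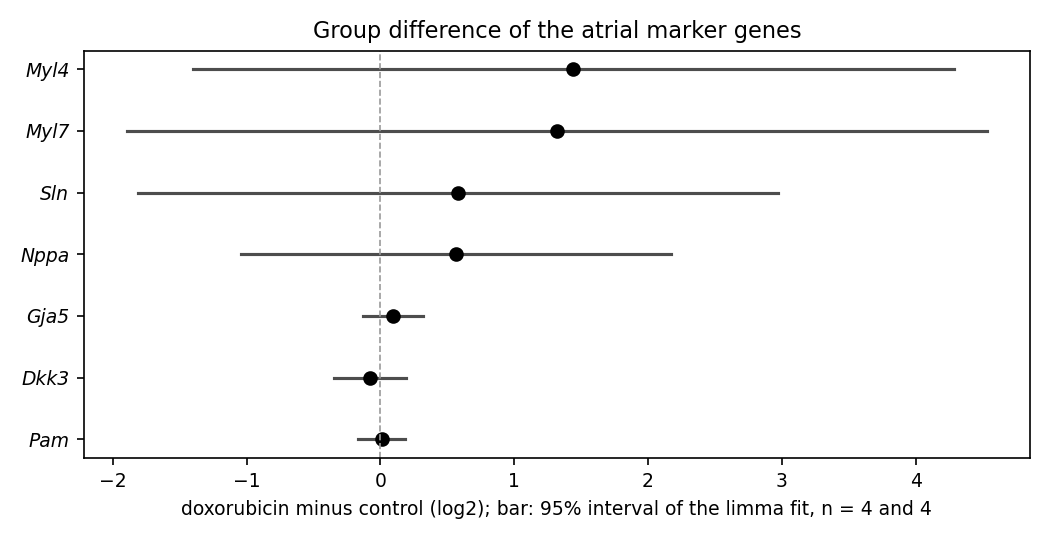
Doxorubicin minus control difference (x axis, log2) of the brightest probe set of each gene (y axis), with bars for the 95% interval of the limma fit over 4 and 4 hearts. All 7 intervals hold 0, and those of Myl4 and Myl7 reach 4.28 and 4.53 log2 while those of Gja5, Dkk3 and Pam lie within -0.34 and 0.32 log2.

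The atrial level was also used as a covariate in the comparison of all probe sets, although it is itself computed from these arrays. With it limma called 929 probe sets against 687 without it, 275 higher and 654 lower. Of the 687, 657 were among the 929, which is 95.6% of the first and 70.7% of the second.

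The ventricular counterparts of the same proteins were nearly level over the hearts. Myl2, the ventricular regulatory light chain gene, lay at 13.95 to 14.14 log2, and Myl3, the ventricular essential light chain gene, at 13.65 to 13.78 log2. Pln, which encodes phospholamban, the ventricular relative of sarcolipin, lay at 13.62 to 13.77 log2. These genes lie at the bright end, where intensities are not proportional to RNA, so differences between hearts may be understated. Of 15 ventricular genes measured none had a range of 1 log2 or more, their median range was 0.36 log2 against 0.39 log2 over all genes, and their median difference between groups was -0.01 against 0.01. Hey2 (0.71) correlated with the atrial level above 0.7, and Hand1 (-0.95), Irx5 (-0.83) and Kcnj2 (-0.75) below -0.7, with ranges of 0.36 to 0.65 log2. Over the 14210 genes outside the 7 the shares were 8.15% and 7.52%. Irx2, a transcription factor gene, fell with doxorubicin (-0.47, SE 0.10, limma adjusted p = 0.0348), lying at 5.61 to 5.96 log2 in control and 5.07 to 5.38 log2 in doxorubicin hearts. It stayed called in 1 of the 8 fits that left out a heart, with adjusted p of 0.0496 to 0.0952.

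Of the calcium pump and its regulators, 5 of 7 genes were measured and none was called by limma, also at an unadjusted p under 0.05. Casq2, the calcium store protein gene, lay at 12.26 to 12.48 log2 and Hrc at 11.56 to 11.87 log2. Atp2a2, the calcium pump gene itself, lay at 13.68 to 13.80 log2, beside the 4.92 log2 range of its inhibitor's gene Sln. Atp2a2 is also at the bright end, where its spread may be understated.

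Other genes known for atrial expression gave a mixed picture. Of 23 listed, 17 were measured, and 3 of them, Mybphl, Tbx5 and Stard10, correlated with the atrial level above 0.7 over the 8 hearts, while 1, the calcium channel gene Cacna1d, correlated below -0.7. Among the 14210 genes outside the 7, 8.15% lay above 0.7. Mybphl, a myosin-binding protein gene, lay at 4.80, 6.89, 5.11 and 4.92 log2 in control hearts 1 to 4 and at 5.90, 5.54, 4.63 and 8.28 log2 in doxorubicin hearts 1 to 4. Doxorubicin 4 and control 2 were again the highest, and control 3 was low here although its light chains were not.

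Tbx5, a T-box transcription factor gene, lay at 5.13, 6.35, 5.64 and 5.23 log2 in control hearts and at 6.21, 6.37, 5.98 and 6.46 log2 in doxorubicin hearts (0.67, SE 0.24, limma adjusted p = 0.236). Stard10, a lipid transfer protein gene, had 7.32 log2 in control 2 and 7.50 log2 in doxorubicin 4 against 6.45 to 7.03 log2 elsewhere. Penk, the enkephalin precursor gene, ranged from 9.28 log2 in control 4 to 10.51 log2 in doxorubicin 4. The channel genes Kcnj3 (6.65 to 7.06 log2), Kcnj5 (7.10 to 7.53 log2) and Kcnk3 (7.92 to 8.20 log2) had narrow ranges, as had the nuclear receptor genes Nr2f1 and Nr2f2, at 0.31 and 0.45 log2.

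Nppb, the gene of the sister peptide BNP, did not follow Nppa. It lay at 12.46, 11.61, 11.88 and 11.86 log2 in control hearts 1 to 4 and at 11.18, 10.61, 11.17 and 10.82 log2 in doxorubicin hearts 1 to 4, without overlap. Doxorubicin 4, where Nppa was highest, was the 2nd lowest for Nppb, and control 1, where Nppa was low, was the highest. It fell by 1.01 (SE 0.18, limma adjusted p = 0.0221), the only call among the 17. It stayed called in 4 of the 8 fits that left out a heart and was lost without control 3 or 4 or doxorubicin 2 or 4, with adjusted p of 0.0158 to 0.0667. Genes for the handling and control of natriuretic peptides had 11 of 13 measured and none called by limma, 1 (Tbx5) being higher at an unadjusted p under 0.05. Mef2c lay at 8.70 to 9.23 log2, Srf at 8.92 to 9.40 log2 and Nppc at 4.35 to 4.82 log2.

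Markers of some other tissues also differed between hearts, in a partly different order. Of 8 genes of valve and tendon-like matrix, the 5 with a range of 1 log2 or more were highest in 3 hearts. Chad had the same 3 hearts highest over a range of 0.62 log2. Tnmd was highest in control 4 (4.29 log2), and the dim Wif1 had doxorubicin 3 (3.984 log2) just above control 2 (3.978 log2). Fmod, which encodes the collagen-binding proteoglycan fibromodulin, lay at 8.15 log2 in control 2, 8.71 log2 in control 3 and 7.60 log2 in doxorubicin 4, against 5.65 to 6.03 log2 in the other 5. Postn, the matricellular periostin gene, had 7.72, 7.99 and 7.99 log2 in those hearts and 4.93 to 5.86 log2 elsewhere. Cytl1 and Thbs4 showed the same split, with 7.53 to 8.17 log2 and 7.08 to 7.35 log2 against at most 6.71 and 5.64 log2. Doxorubicin 1 and doxorubicin 2 were therefore low in these genes although their Myl7 was at 10.25 and 9.45 log2.

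The 8 valve and tendon-like genes had none called by limma, also at an unadjusted p under 0.05, and a median difference of -0.24. With the atrial level as a covariate 3 of them were called lower, Comp (-0.43, SE 0.09, limma adjusted p = 0.0462), Cytl1 (-0.83, SE 0.19, limma adjusted p just under the threshold, 0.05 when rounded) and Thbs4 (-0.85, SE 0.18, limma adjusted p = 0.0426). Without the covariate these 3 genes differed by -0.24, -0.39 and -0.37 (limma adjusted p of 0.745, 0.847 and 0.868). They correlated with the atrial level at 0.77, 0.83 and 0.85, and that level itself differed by 0.56 between the groups. The fit with the covariate called 929 of all 31042 probe sets. The part of valve and tendon-like tissue in the spread of the atrial genes was not tested.

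Of 9 smooth muscle genes, the 4 with a range of 1 log2 or more, Tagln, Acta2, Myh11 and Cnn1, were highest in the same 3 hearts as the valve genes of wide range. Tagln, which encodes an actin-binding protein of smooth muscle, lay at 9.50, 9.66 and 9.65 log2 in control 2, control 3 and doxorubicin 4 and at 8.35 to 8.61 log2 in the other 5. Acta2, smooth muscle actin, lay at 7.25, 7.56 and 7.49 log2 against 6.33 to 6.82 log2, and Myh11, smooth muscle myosin, at 9.16, 9.41 and 9.24 log2 against 8.25 to 8.52 log2. Mylk had the same 3 hearts highest over a range of 0.56 log2, while Des and Smtn were highest in control 1, at 12.25 and 8.61 log2. Of the 9 genes none was called by limma, also at an unadjusted p under 0.05.

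Of 9 fat cell genes, the 5 with a range of 1 log2 or more were highest in doxorubicin 4. Ucp1, the uncoupling protein of brown fat, lay at 9.54 log2 in doxorubicin 4, 6.62 log2 in control 2 and 5.77 log2 in doxorubicin 1, and at 4.27 to 4.50 log2 in the other 5. Adipoq, the adiponectin gene, lay at 8.04 log2 in doxorubicin 4, 6.08 log2 in control 2 and 4.52 to 5.27 log2 elsewhere. Pck1 (8.23 log2) and Plin1 (5.83 log2) were also highest in doxorubicin 4, Pck1 with 5.40 log2 in control 2. Fabp4 was highest in doxorubicin 1 (11.83 log2), and Lep (4.24 log2) and Elovl3 (3.78 log2), both dim, were highest in control 1. Control 3, the 3rd heart by atrial level, had 4.32 log2 of Ucp1. None of the 9 was called by limma, also at an unadjusted p under 0.05, and their median correlation with the atrial level was 0.757.

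**Figure D4:**
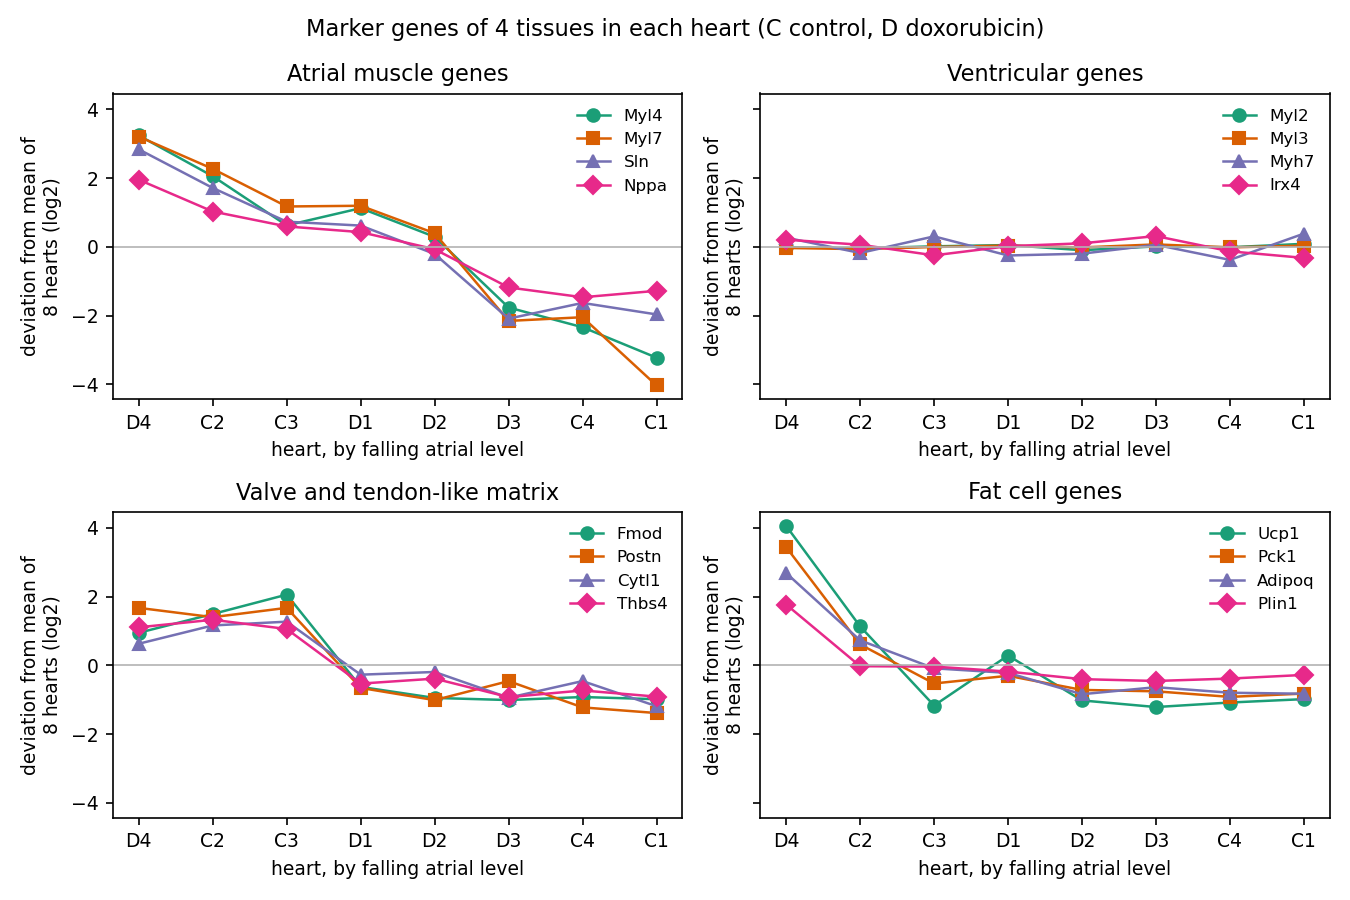
Deviation of single genes from their mean over the 8 hearts (y axis, log2) with hearts by falling atrial level (x axis; C control, D doxorubicin). The atrial genes go down from D4 to C1, though not at every step. The valve and tendon-like genes shown are high in D4, C2 and C3, and the fat genes shown mainly in D4. Myl2, Myl3, Myh7 and Irx4 stay within a range of 0.76 log2.

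Of the remaining lists, markers of the conduction system and sinus node had 10 of 11 measured and none called by limma, with 1 higher at an unadjusted p under 0.05. Etv1 lay at 6.87 log2 in control 1 and 7.61 to 8.14 log2 in the other hearts, and Vsnl1 was highest in doxorubicin 4 (5.03 log2) and control 2 (4.95 log2). The pacemaker channel gene Hcn4 lay at 5.37 to 6.03 log2 and, like Shox2 (5.10 log2), was highest in control 1. Of the 10, Etv1 (0.73) and Vsnl1 (0.84) correlated with the atrial level above 0.7, and Hcn4 (-0.77) and Shox2 (-0.80) below -0.7. Arterial endothelial genes had 7 of 9 measured, of which the chemokine gene Cxcl12 rose (0.71, SE 0.14, limma adjusted p = 0.0322; called in 3 of 8 fits without 1 heart), and Sox17 ranged from 4.72 to 5.77 log2 with control 2 highest. Schwann cell genes had 5 of 8 measured, and S100b reached 6.22 log2 in doxorubicin 4 against 4.40 to 5.30 log2 elsewhere. Mbp (5.78 log2) and Prx (5.95 log2) were also highest in doxorubicin 4, but Sox10 was highest in control 3 (4.90 log2) and Foxd3 in control 4 (4.64 log2). Genes of intracardiac neurons (16 of 17 measured) and of epicardium and mesothelium (11 of 12) had no range of 1 log2 or more, and neither had lung (7 of 7), lymphoid (6 of 9) or skeletal muscle (9 of 10) genes. Blood genes had 4 of 7 measured, with Hbb at 6.61 to 7.80 log2. Apart from Cxcl12 limma called none in these 9 lists, and at an unadjusted p under 0.05 1 gene each was lower for neurons, Schwann cells, lung and blood, and 3 arterial genes were. Over all 14217 genes 1005 were lower and 1375 higher at that p.

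The genes most like the atrial level were sought among 663 genes whose mean was above 4.16 log2 and whose range was at least 1 log2, leaving out the 7. Of the 663, 158 (23.8%) correlated above 0.7 with the level and 7 (1.06%) below -0.7, and over all 14210 other genes the shares were 8.15% and 7.52%. The 15 most alike had Pearson correlations of 0.919 to 0.978 over the 8 hearts, and of 0.820 to 0.975 without control 1 and doxorubicin 4. First was Procr, the endothelial protein C receptor gene, at 6.71, 7.82, 7.50 and 6.89 log2 in control hearts 1 to 4 and 7.42, 7.47, 6.73 and 7.92 log2 in doxorubicin hearts 1 to 4. Its 3 lowest hearts were those of the light chains.

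Among the others, picked after their values were seen, Fn1, fibronectin, ranged from 7.24 log2 in control 1 to 9.05 log2 in doxorubicin 4, Cdh11, a cadherin of mesenchymal cells, from 6.42 to 8.12 log2 in the same hearts, and Omd, the proteoglycan osteomodulin, from 6.07 to 8.15 log2. Aspn, asporin, ranged from 7.48 to 9.36 log2. The remaining 10 were Gpm6b, Dclk1, Slc16a12, Fmr1, Cgnl1, Sytl2, St3gal2, Csrp2, Ggh and Sult1a1, with ranges of 1.03 to 1.86 log2. All 15 overlapped between the groups, with limma adjusted p of 0.542 to 0.975. Only 4 of the 15 stayed among the first 15 by Spearman's rho and 6 with deviations from group means, so the exact names depend on the measure.

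The 6 genes that ran most against the level had correlations of -0.83 to -0.72. Eya1, a developmental transcription cofactor gene, lay at 5.07 log2 in doxorubicin 4 and 5.64 to 6.34 log2 elsewhere. Cda, cytidine deaminase, Rnf151, LOC102553541 and Spink8 were highest in control 1, Rnf151 with 7.18 log2 against at most 6.13 log2 in the other hearts. Dusp5, a MAP kinase phosphatase gene, lay at 7.46 to 8.36 log2 in control and 6.67 to 7.26 log2 in doxorubicin hearts (-0.79, limma adjusted p = 0.0912). The groups did not overlap for Dusp5. Without control 1 and doxorubicin 4 the correlations of LOC102553541, Spink8 and Dusp5 were -0.19, -0.25 and -0.41. Those of Eya1, Cda and Rnf151 were then -0.62, -0.87 and -0.94.

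**Figure D5:**
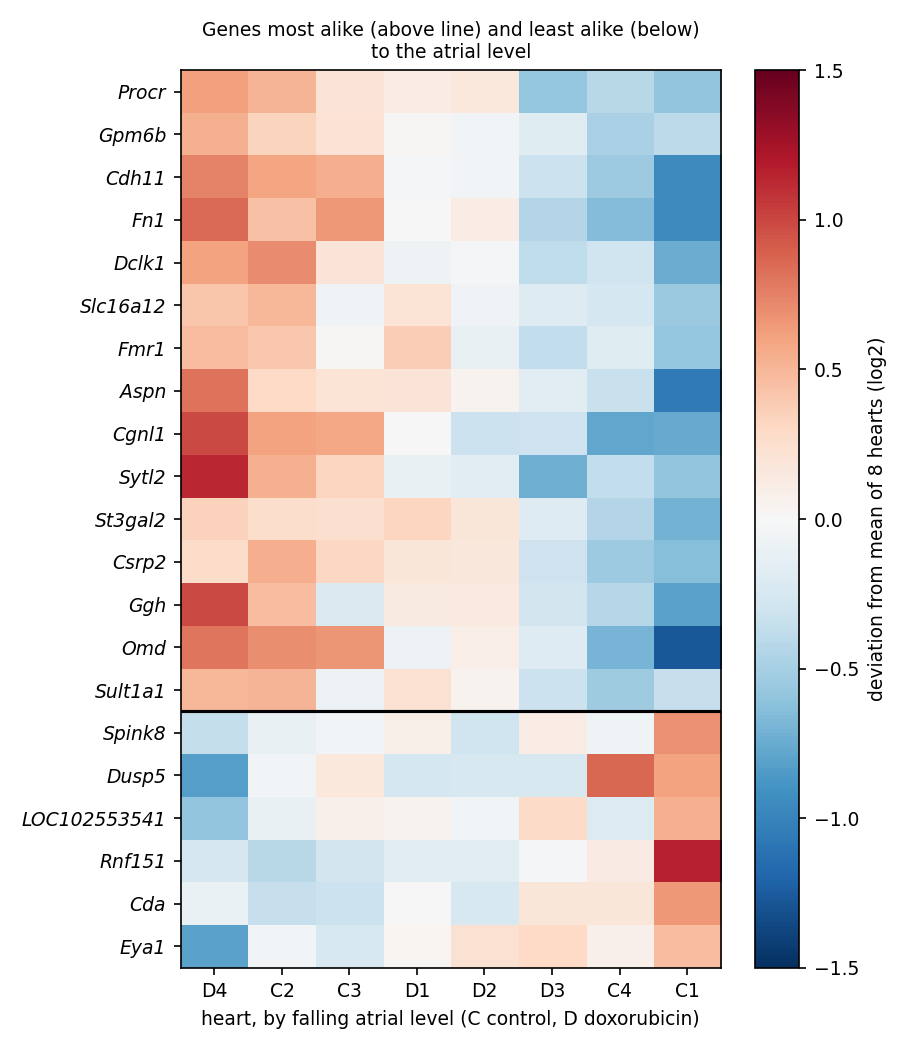
Deviation of each gene from its mean over the 8 hearts (colour, log2, from -1.5 to 1.5) for the 15 genes most like the atrial level (above the line) and the 6 least like it (below), with hearts by falling level (x axis; C control, D doxorubicin). The upper genes go from high in D4 and C2 to low in C4 and C1, and Rnf151, among the lower ones, is highest in C1.

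Some measures of the arrays moved with the atrial level. The median intensity was 30.9 in control 1 and 31.0 in control 4, the lowest hearts by atrial level, and 29.9 to 30.6 in the others, with a correlation of -0.78 with the atrial level over the 8 hearts and -0.70 without control 1 and doxorubicin 4. The 3′ minus 5′ difference of the actin control, a sign of RNA quality, was 0.60 to 0.65 log2 in control 1, control 4 and doxorubicin 3 and 0.68 to 0.79 log2 in the other 5 hearts (r = 0.72, and 0.77 over 6 hearts). That of the GAPDH control was 0.09 to 0.26 log2 and highest in control 1 (r = -0.43). The level of the polyadenylated control RNAs was 7.22 to 7.51 log2 and lowest in control 1 (r = 0.67). Their part in the spread of the atrial genes was not tested. Ranges of Myl4, Myl7, Sln and Nppa after centring each array on its median were 6.50, 7.27, 4.94 and 3.46 log2.

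The hybridization control level, the mean of 18 probe sets for transcripts added to the labelled sample, was 10.21 to 10.57 log2 in control and 9.97 to 10.13 log2 in doxorubicin arrays, so that it did not overlap between the groups (r = -0.08 with the atrial level). With it as a covariate limma called 92 probe sets, 91 of them among the 687, and Nppb, Irx2 and Cxcl12 were not called (adjusted p of 0.622, 0.579 and 0.574). Their differences were then -0.90 (SE 0.32), -0.50 (SE 0.17) and 0.74 (SE 0.25), against -1.01 (SE 0.18), -0.47 (SE 0.10) and 0.71 (SE 0.14) without the covariate. This level and doxorubicin cannot be told apart for those calls.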

How the data were processed

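Per the submitters' processing notes the authors used RMA, and the deposited probe set intensity values are on a linear scale. No source used here names the RMA software or the probe set definitions. RMA brings the probe intensities of all arrays to 1 distribution before they are summarised, and a shift common to most genes is lost. The log2 of each intensity was taken without an offset, and 57 AFFX controls were left out. Gene symbols came from the platform annotation, updated by gene ID through the RefSeq table of GRCr8 (20758 of 20826 probe sets with 1 symbol). Each gene is given by its brightest probe set. Groups were compared with limma 3.58.1 (lmFit, eBayes) in R 4.3.3 over all 8 arrays, tested on simulated data, and figures drawn with matplotlib 3.10.9. Arrays carry no depth, and their number limits the precision.

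The genes and the 16 lists (172 genes, 147 measured) were chosen with earlier results of these data known. Named were all 7 genes, the 15 most and 6 least alike, and from each list the called genes and up to 4 with the widest range, of which the quiet lists are given by counts, and counterparts. Other list genes were named after their values were seen. Leaving-out fits keep at least 3 hearts a group. Same-numbered hearts of the 2 groups deviated with correlations of -0.18 to 0.06, and no label links them. Alternatives covered normalization, filter, eBayes options, array weights, covariates, block and leaving out hearts. Protein sequences were not used here.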

Additional observations from a re-analysis of the deposited data

Results flagged for a closer look

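In groups of 4 hearts, a heart was singled out if its gap to the nearest other heart was, as a share of the group's range, above Dixon's 95% critical value, which chance gives in about 1 in 20 groups. This was so in 17 of 186 groups tested (93 genes). Many of these genes were named for their range or their likeness to the atrial level over these same hearts. The count therefore cannot be set against 1 in 20. Among the 7 atrial genes it was 1 heart, control 1 for Dkk3 at 10.06 log2, the lowest control heart. Doxorubicin 4, the heart with the highest atrial level, stood above the other doxorubicin hearts for the fat genes Pck1 (8.23 log2) and Plin1 (5.83 log2), the smooth muscle genes Acta2 (7.49 log2) and Myh11 (9.24 log2), S100b (6.22 log2) and Upk1b (4.47 log2), and below them for Dusp5 (6.67 log2). Control 2 stood above the other control hearts for Mybphl (6.89 log2), Ucp1 (6.62 log2) and Vsnl1 (4.95 log2). Control 1 was also apart for Spink8 (11.57 log2, highest) and Etv1 (6.87 log2, lowest), and control 4 for Wt1 (5.36 log2, lowest). Doxorubicin 3 was lowest for Irx3 (7.26 log2) and Ager (5.88 log2), and doxorubicin 1 for Nkx2-1 (3.70 log2).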

How the results depend on the processing

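No atrial gene was called under any of the 105 alternatives run for the 7 genes, and 100 kept the sign of the difference. Those that did not were Dkk3 at 0.0068 with the hybridization level as a covariate, Sln, and Pam at -0.048 without control 1, -0.0040 without control 4 and -0.03 without doxorubicin 4. Leaving out 1 heart gave -0.27 to 1.37 for Sln, -0.048 to 0.057 for Pam and 397 to 854 called probe sets (92 with the hybridization level). With the mean of a gene's probe sets the range was 0.25 log2 for Gja5 and 0.15 log2 for Dkk3. Of the 15 genes most alike, 4 stayed by Spearman's rho and 6 with deviations from group means. Of the list genes limma called 3, against 5 with array weights, 8 with the atrial level and 0 with the hybridization level as a covariate, and 0 (without control 3) to 5 (without control 1) when 1 heart was left out. The replicate block, whose numbers did not pair the hearts, gave 511 called probe sets, 448 of them among the 687, and Cxcl12 was not called with it (limma adjusted p = 0.0989). Dim probe sets give only a bound on low levels.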
